A study of Mus musculus with 22 samples.

Results

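The tumour necrosis factor (TNF) superfamily was examined in colon tumours of mice through the genes whose symbol is Tnf or begins with Tnfsf, Tnfrsf or Tnfaip. By this rule 38 genes were members, of 19505 named genes on the array, and each had a single probe set, the group of short probes that stands for a gene. They comprise Tnf itself, the ligands named Tnfsf, the receptors named Tnfrsf and the Tnfaip genes. The last are named as induced by TNF or, for Tnfaip8l1, Tnfaip8l2 and Tnfaip8l3, as relatives of Tnfaip8. Tnfaip genes need not belong to the family by structure. Tnfsf12 and Tnfsf13 had no named probe set and were not analysed here.

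Superfamily ligands are mostly trimeric proteins on the surface of immune and stromal cells, and several are cut loose to act at a distance. Many of their receptors recruit TRAF adaptors and switch on NF-kB, a transcription factor of inflammation and cell survival. Some carry a death domain through which a cell can be killed, and a receptor can do both or neither. In the colon these signals take part in inflammation, in the help that T and B cells receive and in the life and death of epithelial cells.

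All 22 tumours were induced with azoxymethane, a carcinogen that acts on the rodent colon, in male FVB/N mice, and total RNA of each was hybridised to a Clariom S array. In the control group were 6 mice fed low-fat chow that drew 10% of its kcal from fat. Obese mice (5) were fed a high-fat chow that drew 60% of its kcal from fat, and neither group had sulindac. Another 6 mice, called obese sulindac here, had the 60% chow together with sulindac, which blocks the cyclooxygenase enzymes that make prostaglandins. The formerly obese group, 5 mice without sulindac, began on high-fat chow and ended on low-fat chow. Every group therefore carried azoxymethane tumours, and no tumour-free colon was used here. The sources used here give no age, dose or duration. Each array is a separate tumour and the titles number the mice, except for a tumour titled Mouse_X in the obese sulindac group. Levels are the deposited values, read as log2, so that a difference of 1 is a doubling, and genes are not ranked against each other by level because each probe set has its own brightness. Array medians ran from 6.67 to 6.83. Of 8 epithelial markers, 7 were above these medians in every tumour, between 12.11 and 17.92, while Cdx1, a transcription factor of the intestine, ran from 5.21 to 10.49. The adipocyte markers Adipoq and Lep were under the array medians in every tumour. In whole tumour pieces, fewer cells of a type and less RNA per cell cannot be told apart.

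The stretches before the start sites of 5 members are printed. Tnf, Tnfaip3, Tnfaip2 and Tnfsf10 were taken because they varied together across tumours, and Tnfsf13b for the smallest limma p between regimens. Each stretch is the 250 bases upstream of a RefSeq start on GRCm38.p6, written 5′ to 3′ in the direction of the gene. Capitals mark matches to the TATA box TATAAA, to the NF-kB consensus or to the interferon-stimulated response element (ISRE) on either strand; the ISRE shows as the capitals in Tnfsf13b. Tnfaip3 and Tnfsf13b have 2 RefSeq starts each, and 1 of them is shown. For both genes it is the start with matches, and the window of the other start held none of the 3 motifs.
Tnf (chr17:35202008-35202257, minus strand): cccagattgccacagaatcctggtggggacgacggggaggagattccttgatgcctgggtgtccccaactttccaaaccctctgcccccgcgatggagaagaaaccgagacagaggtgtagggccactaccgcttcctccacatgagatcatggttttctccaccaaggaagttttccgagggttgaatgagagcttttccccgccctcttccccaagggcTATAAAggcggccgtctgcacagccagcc
Tnfaip3 (chr10:19015411-19015660, minus strand): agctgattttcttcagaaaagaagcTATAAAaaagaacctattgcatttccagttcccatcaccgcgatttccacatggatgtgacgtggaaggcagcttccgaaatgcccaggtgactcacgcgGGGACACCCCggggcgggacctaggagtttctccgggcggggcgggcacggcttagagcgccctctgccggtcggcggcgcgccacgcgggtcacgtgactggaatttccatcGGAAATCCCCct
Tnfaip2 (chr12:111442411-111442660, plus strand): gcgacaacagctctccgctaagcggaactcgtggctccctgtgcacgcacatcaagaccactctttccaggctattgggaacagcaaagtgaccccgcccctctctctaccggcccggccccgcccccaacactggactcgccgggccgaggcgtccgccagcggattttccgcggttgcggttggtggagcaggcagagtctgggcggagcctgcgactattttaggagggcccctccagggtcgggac
Tnfsf10 (chr3:27316827-27317076, plus strand): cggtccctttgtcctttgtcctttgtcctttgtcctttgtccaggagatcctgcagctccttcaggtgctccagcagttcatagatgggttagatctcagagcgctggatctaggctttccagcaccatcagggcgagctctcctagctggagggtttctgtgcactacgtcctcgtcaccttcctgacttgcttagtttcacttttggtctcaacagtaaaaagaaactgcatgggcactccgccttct
Tnfsf13b (chr8:10006383-10006632, plus strand): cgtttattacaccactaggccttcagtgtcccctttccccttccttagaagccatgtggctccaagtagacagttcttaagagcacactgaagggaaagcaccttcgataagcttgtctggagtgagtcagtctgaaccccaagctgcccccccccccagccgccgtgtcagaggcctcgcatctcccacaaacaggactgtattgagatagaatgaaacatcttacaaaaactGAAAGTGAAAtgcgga
In Tnf the TATA box lay 29 to 24 bases before the start. Tnfaip3, which encodes the ubiquitin-editing NF-kB inhibitor A20, held an NF-kB match at 12 to 3 bases before the start shown and another further upstream. Tnfsf13b held an ISRE at 16 to 7 bases before the start shown, and the windows of Tnfaip2 and Tnfsf10 held none of the 3 motifs. Windows were found for 31 of the 38 members, 36 windows in all. The NF-kB consensus was in 4 of these 36 (11.1%), those of Tnfaip3, Tnfaip8l1, Tnfrsf8 and Tnfrsf9, against 3.9% of all 32851 windows. The ISRE was in 4 of 36 (11.1%), those of Tnfrsf14, Tnfrsf17, Tnfrsf1b and Tnfsf13b, against 2.98% of all windows. TATAAA was in 6 of 36 (16.7%), against 12.4%. A match says that the letters are present, not that a factor binds there.

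Members varied widely from tumour to tumour. The SD over the 22 tumours had a median of 0.667 among members and 0.351 among all probe sets, and 36 of 38 members lay above the latter. This contrast was not matched for level. Mean levels of 26 members were above 6.77, the median of all probe set means, and those of 12 were at or under it, where changes are harder to measure. Tnfsf10, which encodes the death ligand TRAIL, had the largest SD, 1.73. It ran from 7.40 in control Mouse_26 to 14.79 in control Mouse_27, a 168-fold range within 1 regimen. Tnfrsf13c, which encodes the BAFF receptor of B cells, had an SD of 1.25 and ran from 5.23 to 10.74. Tnfsf4, which encodes OX40 ligand, had an SD of 1.22 and ran from 5.47 in control Mouse_27 to 9.95 in control Mouse_32.

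Control Mouse_26 had the lowest of the 22 levels for 16 of 38 members, whereas 7.77% of all 19505 named genes were lowest there. These 16 include the ligands Tnfsf10, Tnfsf11, Tnfsf13b and Tnfsf15 and the receptors Tnfrsf1a, Tnfrsf4, Tnfrsf13b, Tnfrsf13c, Tnfrsf14 and Tnfrsf18. The same tumour also had the lowest scores of the T cell, B cell, plasma cell and dendritic cell marker lists, but the highest NK cell score, at 5.80, and the highest level of Tnfrsf19. Obese sulindac Mouse_X was lowest for 6 members, among them Tnf, Tnfaip2, Tnfaip3 and Tnfrsf9, and had the lowest macrophage score. The median correlation of each array with the others was 0.964 for Mouse_26, the lowest of the 22, and 0.970 for Mouse_X. The part of these tumours' cell content in the results was not tested.

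**Figure D1:**
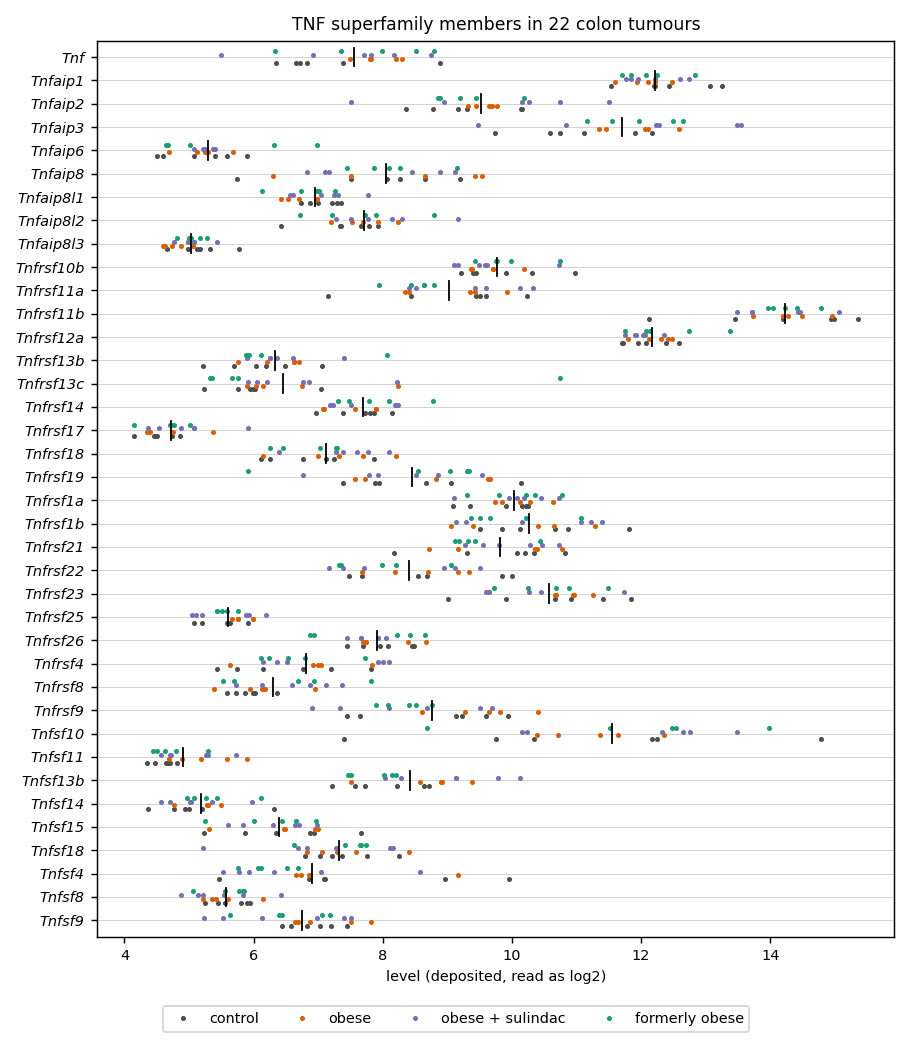
Level of each of the 38 members (rows, alphabetical) in each of the 22 tumours (points, coloured by regimen), on the deposited log2 scale, with a black tick at the mean. The points of Tnfsf10 spread from 7.40 to 14.79, and the colours are mixed in every row.

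Among the ligands, Tnf, the founding inflammatory cytokine, was lower on average in control than in obese tumours without passing the test. Tnf was at 6.34, 6.77 and 8.88 (lowest, median and highest) in the 6 control tumours. The 5 obese tumours were at 7.49, 7.80, 7.82, 8.21 and 8.30. Tnf ran from 5.49 through a median of 7.76 to 8.75 in the obese sulindac tumours, and was at 6.33, 7.35, 7.99, 8.51 and 8.79 in the formerly obese ones. All 5 obese tumours lay above the control median, but control Mouse_27 was above every obese tumour, and all groups overlapped. The difference obese minus control was 0.79 ± 0.52 log2 units (standard error, 95% interval -0.28 to 1.86), with adjusted p = 0.9998 (limma, Benjamini-Hochberg over all probe sets). It was -0.13 ± 0.54 for formerly obese minus obese and -0.45 ± 0.52 for obese sulindac minus obese. The sulindac difference was -0.05 without obese sulindac Mouse_X and -0.70 without Mouse_114, and the diet switch difference was 0.24 without formerly obese Mouse_140. These comparisons share the obese arrays.

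Tnfsf11, which encodes RANK ligand, a signal for osteoclasts and for the M cells over gut lymphoid tissue, had the smallest p of any member between obese and control tumours. Its level was 4.35, 4.67 and 4.82 (lowest, median and highest) in control tumours and 4.69, 4.89, 5.19, 5.59 and 5.89 in obese tumours. In formerly obese tumours it was 4.44, 4.50, 4.62, 4.79 and 5.29, and in obese sulindac tumours it ran from 4.56 to 5.73. Thus 4 of 5 obese tumours were above every control, yet all of these levels are low on this array. The difference was 0.64 ± 0.23 (95% interval 0.17 to 1.11), with adjusted p = 0.9998 in limma (Benjamini-Hochberg). The exact permutation p was 0.00649, two-sided and not adjusted for the 38 members and 6 comparisons. For formerly obese minus obese the difference was -0.52 ± 0.24 (limma adjusted p = 0.872). Tnfrsf11a, which encodes its receptor RANK, differed by 0.03 ± 0.45 between obese and control tumours.

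Tnfsf13b encodes BAFF, a survival factor for B cells. It was at 7.21, 7.97 and 8.72 (lowest, median and highest) in control tumours and at 7.50, 8.57, 8.90, 8.92 and 9.38 in obese ones. Obese sulindac tumours were at 8.03, 9.13 and 10.13, and formerly obese tumours at 7.46, 7.50, 8.02, 8.14 and 8.20. Of the 6 obese sulindac tumours, 4 lay above every control and 5 above every formerly obese tumour. Obese sulindac minus control was 1.07 ± 0.36 (95% interval 0.33 to 1.81, limma adjusted p = 0.633, exact permutation p = 0.0325 unadjusted). Obese sulindac minus formerly obese was 1.22 ± 0.37 (95% interval 0.45 to 1.99, limma adjusted p = 0.626, exact permutation p = 0.0195 unadjusted). Without obese sulindac Mouse_114, the adjusted p of the first of these fell to 0.380, the lowest of any member in any setting tried. The T cell score, which moved with Tnfsf13b across tumours, had means of 6.42 in control, 6.75 in obese, 6.90 in obese sulindac and 6.40 in formerly obese tumours, and its part in the difference was not tested. Obese minus control was 0.64 ± 0.37 and formerly obese minus obese -0.79 ± 0.39.

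A pair of ligands of T cell help were among the members with the smallest limma p in other comparisons. Tnfsf9, which encodes the 4-1BB ligand, was at 6.64, 6.69, 6.88, 7.51 and 7.82 in obese tumours and ran from 5.23 through 6.55 to 7.50 in obese sulindac tumours. The groups overlapped, and the difference obese sulindac minus obese was -0.65 ± 0.38, or -0.40 without obese sulindac Mouse_125. Tnfsf4 was at 5.47, 7.10 and 9.95 (lowest, median and highest) in controls and at 5.75, 6.07, 6.11, 6.52 and 6.68 in formerly obese tumours. Formerly obese minus control was -1.35 ± 0.65 (95% interval -2.71 to 0.01, limma adjusted p = 0.896), with controls spread on both sides, and -0.87 without control Mouse_32. Tnfsf10 differed by 0.18 ± 1.02 between obese and control tumours, with a 95% interval of -1.93 to 2.29 that reflects its spread.

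**Figure D2:**
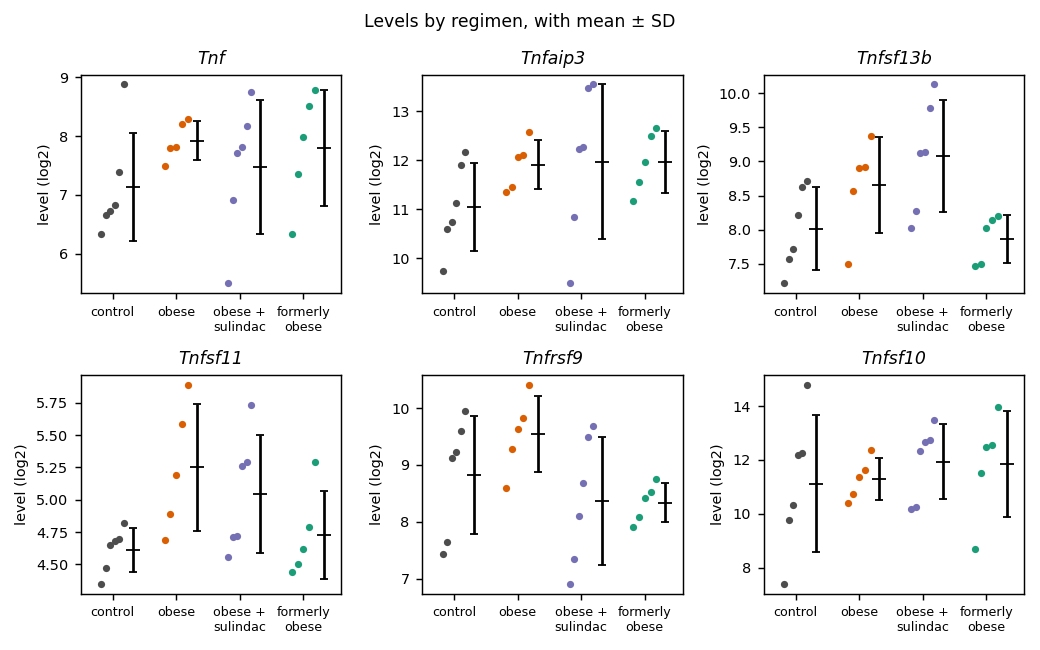
Log2 level of 6 members in each tumour by regimen, points ordered by level within a group, with the mean and SD beside them (n = 6, 5, 6 and 5). The axes do not start at 0. Obese tumours of Tnfsf11 reach 5.89 where controls end at 4.82, and formerly obese tumours of Tnfrsf9 end at 8.76 where 4 of 5 obese tumours lie higher.

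Among the receptors, Tnfrsf1a, the widely expressed death-domain receptor of TNF, had a mean of 9.83 in control tumours. Its means were 10.13 in obese, 10.08 in obese sulindac and 10.09 in formerly obese tumours. It was at 9.08, 10.04 and 10.25 (lowest, median and highest) in controls and at 9.74, 9.84, 10.13, 10.28 and 10.64 in obese tumours. Obese sulindac tumours ran from 9.10 to 10.73 and formerly obese tumours from 9.31 to 10.77, so all groups overlapped. Obese minus control was 0.30 ± 0.29, formerly obese minus obese -0.04 ± 0.30 and obese sulindac minus obese -0.04 ± 0.29. The first was 0.15 without control Mouse_26 and 0.17 without obese Mouse_96. Tnfrsf1b, the second TNF receptor, found mainly on leukocytes, was at 9.51, 10.39 and 11.81 in controls and at 9.05, 9.39, 10.40, 10.65 and 11.28 in obese tumours. It ran from 9.14 to 11.39 in obese sulindac and from 9.36 to 11.07 in formerly obese tumours, again overlapping. The same 3 differences were -0.32 ± 0.49, -0.19 ± 0.51 and 0.22 ± 0.49. The first ran from -0.60 without obese Mouse_101 to -0.04 without obese Mouse_96.

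Tnfrsf9, which encodes the activation receptor 4-1BB of T cells, had the smallest limma p of any member in both comparisons with obese tumours as the reference. It was at 8.60, 9.28, 9.64, 9.82 and 10.41 in obese tumours and at 7.90, 8.08, 8.41, 8.52 and 8.76 in formerly obese tumours. Obese sulindac tumours were at 6.91, 8.39 and 9.69 (lowest, median and highest) and controls at 7.44, 9.18 and 9.94. Of the formerly obese tumours 4 of 5 lay below every obese one, as did 3 of 6 obese sulindac tumours. Formerly obese minus obese was -1.22 ± 0.52 (95% interval -2.30 to -0.14, limma adjusted p = 0.866, exact permutation p = 0.0159 unadjusted). Obese sulindac minus obese was -1.18 ± 0.50 (95% interval -2.21 to -0.15, limma adjusted p = 0.721, exact permutation p = 0.0758 unadjusted). By the exact permutation test, Tnfrsf25 and Tnfsf4 had the same p as Tnfrsf9 (0.0159 unadjusted) for formerly obese minus obese. For obese sulindac minus obese, that of Tnfaip8l3 was smaller, at 0.0519 unadjusted. Both Tnfrsf9 differences share the same 5 obese arrays, and neither is shown to be a change from control levels, which spanned most of the range.

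Among the Tnfaip genes, Tnfaip3 was at 9.73, 10.93 and 12.17 (lowest, median and highest) in controls and at 11.35, 11.46, 12.06, 12.10 and 12.58 in obese tumours. Obese sulindac tumours held both extremes of all 22, from 9.48 in Mouse_X to 13.55 in Mouse_129, and formerly obese tumours ran from 11.16 to 12.65. Obese tumours all lay above the control median and overlapped the control range. Obese minus control was 0.87 ± 0.58 (95% interval -0.33 to 2.07), formerly obese minus obese 0.05 ± 0.60 and obese sulindac minus obese 0.06 ± 0.58. The last was 0.56 without obese sulindac Mouse_X and -0.25 without Mouse_129. Tnfaip8l3, a lipid-transfer relative of Tnfaip8, was at 4.66, 5.14 and 5.77 in controls and at 4.60, 4.62, 4.73, 4.87 and 5.06 in obese tumours. All 5 obese tumours lay under the control median, at low levels, and the difference was -0.40 ± 0.16 (95% interval -0.74 to -0.06, limma adjusted p = 0.9998, exact permutation p = 0.0541 unadjusted). Tnfaip8l1, another relative, was at 6.42, 6.53, 6.70, 6.98 and 6.98 in obese tumours and ran from 6.57 through 7.14 to 7.77 in obese sulindac tumours. These overlapped, and the difference was 0.37 ± 0.22, or 0.23 without obese sulindac Mouse_124. Control tumours ran from 6.74 to 7.36 for Tnfaip8l1, and 3 of 5 obese tumours lay below every control. The exact permutation p for obese minus control was 0.0498, unadjusted.

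No member passed the test in any of the 6 comparisons between regimens, at an adjusted p under 0.05 in limma (Benjamini-Hochberg over 22203 probe sets), nor did any probe set (0 called, percent 0). At an unadjusted p under 0.05, 2 members passed for obese minus control, where 4.03% of all probe sets did. The counts were 2 for formerly obese minus obese (5.69% of all probe sets), 1 for obese sulindac minus obese (6.55%), 0 for formerly obese minus control (5.54%), 2 for obese sulindac minus control (6.63%) and 1 for obese sulindac minus formerly obese (6.62%). With all tumours, these shares of 38 members are near the background. In limma's F test over the 4 regimens 0 members passed (0 of all probe sets), with 2 at an unadjusted p under 0.05, Tnfsf13b and Tnfsf11, where 6% of all probe sets were. Without obese sulindac Mouse_X the unadjusted count for obese sulindac minus control was 7 (18.4%) in place of 2, where 6.68% of all probe sets passed in that fit, and 0 members passed after adjustment. No member had groups that did not overlap, where 0.383% of all probe sets had none between obese and control, 0.878% between formerly obese and obese, and 0.676% between obese sulindac and obese. For the other comparisons the shares were 0.423% (formerly obese and control), 0.297% (obese sulindac and control) and 0.567% (obese sulindac and formerly obese).

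The direction of the members' mean differences was uneven in 2 of the main comparisons. Obese minus control was above 0 for 28 members and below for 10, with a median of 0.17, where 49.1% of all probe sets were higher and the median was near 0. Without control Mouse_26 the split was 22 to 16 and the median 0.08. Formerly obese minus obese was above 0 for 12 members and below for 26 (median -0.09), where 50.7% of all probe sets were higher. Obese sulindac minus obese split 19 to 19 (median 0.01), where 51.7% were higher. All of these splits share the obese arrays.

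**Figure D3:**
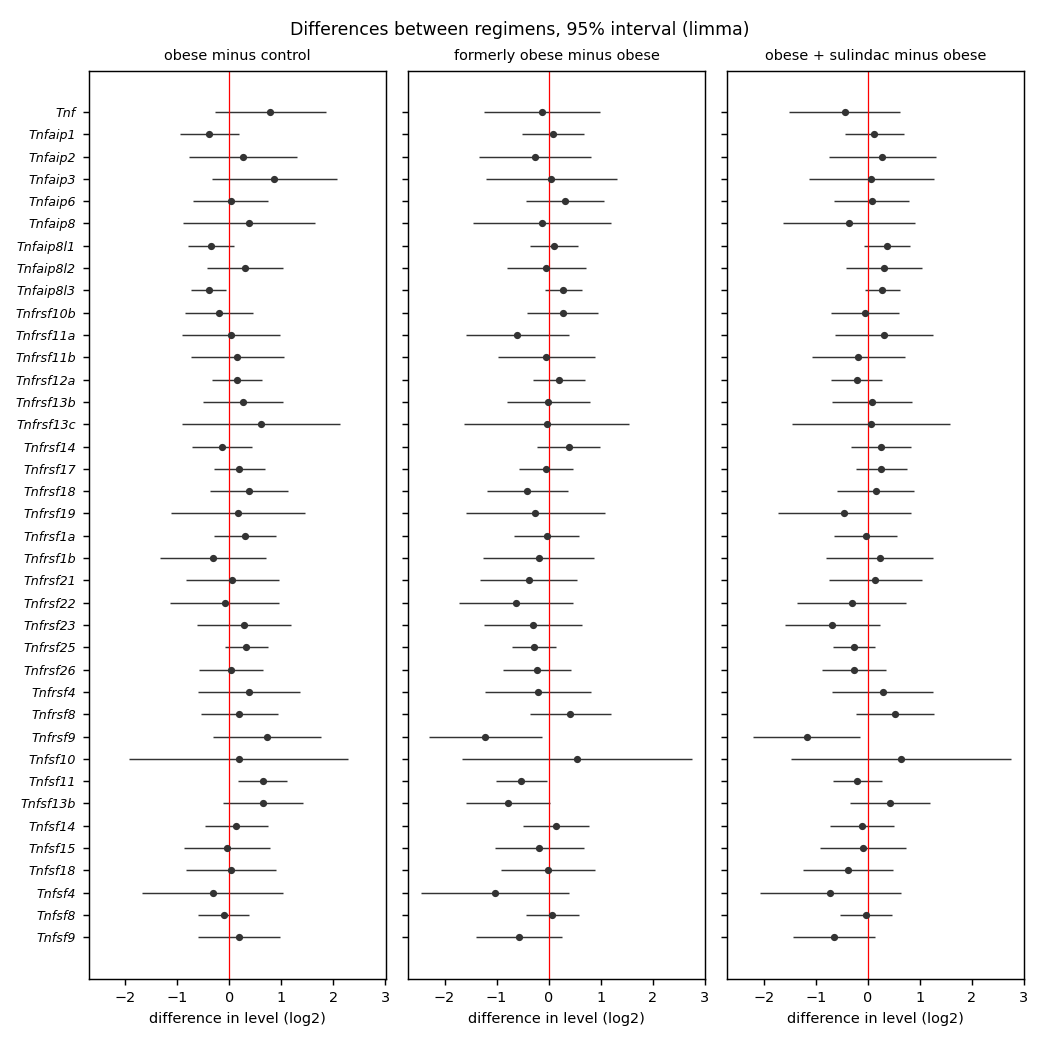
Difference in log2 level between regimens for each member (rows), with the 95% interval from limma, in 3 panels that share the obese arrays. The intervals of Tnfsf11 and Tnfaip8l3 exclude 0 in the first panel, those of Tnfrsf9 and Tnfsf11 in the second and that of Tnfrsf9 in the third, before any adjustment.

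Genes that share the pathway but not the symbols were read from lists. None of the 78 measured passed limma's test in any main comparison. At an unadjusted p under 0.05 there were 1 (1.28%, against 4.03% of all probe sets) for obese minus control and 2 (2.56%, against 5.69%) for formerly obese minus obese. For obese sulindac minus obese there were 8 (10.3%, against 6.55%). Of 18 measured TNF response targets, 17 had a higher mean in obese tumours than in controls (median 0.52, where 49.1% of all probe sets were higher), 15 lower in formerly obese than in obese tumours (median -0.31) and 14 lower in obese sulindac than in obese tumours (median -0.35). In the last 2 comparisons 50.7% and 51.7% of all probe sets were higher. All of these counts share the obese arrays, and genes of a list can vary together. The counts were not repeated with tumours left out. The named ones include Cxcl1, a neutrophil chemokine, at 1.10 ± 0.70 for obese minus control, and Mmp9, a gelatinase, at -1.44 ± 0.58 for formerly obese minus obese (limma adjusted p = 0.866). For obese sulindac minus obese, Ccl2, a monocyte chemokine, was at -0.99 ± 0.40 (limma adjusted p = 0.708) and the cytokine Il6 at -1.21 ± 0.58. The neutrophil score had means of 7.36 in control, 8.30 in obese, 7.96 in obese sulindac and 7.12 in formerly obese tumours. Of 8 macrophage and monocyte markers, 8 lay higher in obese tumours than in controls, 0 lay higher after the diet switch than in obesity and 4 lay higher with sulindac than without. The part of either cell type in these differences was not tested.

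Of 9 NF-kB inhibitors and feedback genes, 8 had a higher mean in obese tumours than in controls (median 0.41). Of all probe sets, 49.1% were higher in that comparison. Among the 8 genes was Tnip2, a partner of A20, at 0.46 ± 0.20. Of 7 measured NF-kB subunits and kinases, 2 lay higher (median -0.06), and Nfkb2 was at -0.60 ± 0.27 for obese sulindac minus obese. Of 18 receptor adaptors and complex members, 10 lay higher in obese tumours (median 0.03), and the adaptor Traf6 was at 0.40 ± 0.16 for obese sulindac minus obese. The 6 genes of the cell death branch split 4 to 2, with Cflar, an inhibitor of caspase-8, at 0.47 ± 0.24 for obese minus control. Of 7 ligand shedding genes 3 lay higher in obese tumours, and for obese sulindac minus obese Adam17, the enzyme that frees TNF from the membrane, was at -0.43 ± 0.21. Superfamily ligands under other symbols lay higher in obese tumours in 5 of 6 cases, with Lta at 0.35 ± 0.23. Receptors under other symbols did so in 5 of 7, with Cd40, a receptor of antigen-presenting cells, at 1.05 ± 0.61. None of these genes passed limma's test in a main comparison, and the comparison given for a named gene differs between lists. These counts also share arrays, were not repeated with tumours left out, and come from genes that can vary together.

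Across tumours, many members rose and fell with marker genes of cell types. For each of 16 lists of marker genes the score of a tumour was the mean log2 level of the list. Each member was correlated with each score over the 22 tumours (608 pairs, two-sided permutation test with 100000 resamples, Benjamini-Hochberg over the pairs). At an adjusted p under 0.05, 79 pairs were called, 70 positive and 9 negative, in 26 members. All called pairs had an r of at least 0.552 in size. Over all named genes outside each list, 4.01% of pairs with the same scores were that large, 2.33% positive and 1.68% negative. With group means removed 78 of the 79 pairs were called as well, and by Spearman's rho 62 were. Without control Mouse_26, 48 pairs were called in all, and 45 of the 79 kept their call. In 36 pairs, of 15 members, the call held with each tumour left out in turn.

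The scores of T, regulatory T, macrophage, dendritic, B and plasma cells and of neutrophils held 66 of the 79 calls, while the NK cell score held 0. For the macrophage and monocyte score 13 of 38 members (34.2%) had a positive call, where 3.49% of named genes reached that r. The counts were 12 (31.6%, against 4.8%) for the regulatory T cell score, 11 (28.9%, against 3.84%) for the T cell score and 7 (18.4%, against 2.94%) for the plasma cell score. They were 5 (13.2%, against 0.903%) for the neutrophil score and 4 (10.5%, against 2.78%) for the B cell score. For the dendritic cell score 10 (26.3%, against 3.81%) reached that r and 9 of them were called, and for the epithelial score 7 (18.4%, against 4.45%) reached it and 5 were called. The regulatory T cell score rests on Il2ra, Ctla4 and Ikzf2, which activated T cells also express, and Foxp3 was not analysed here. A member can be called with several scores. Members varied more across tumours than most probe sets did (median SD 0.667 against 0.351), and these shares were not matched for that.

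**Figure D4:**
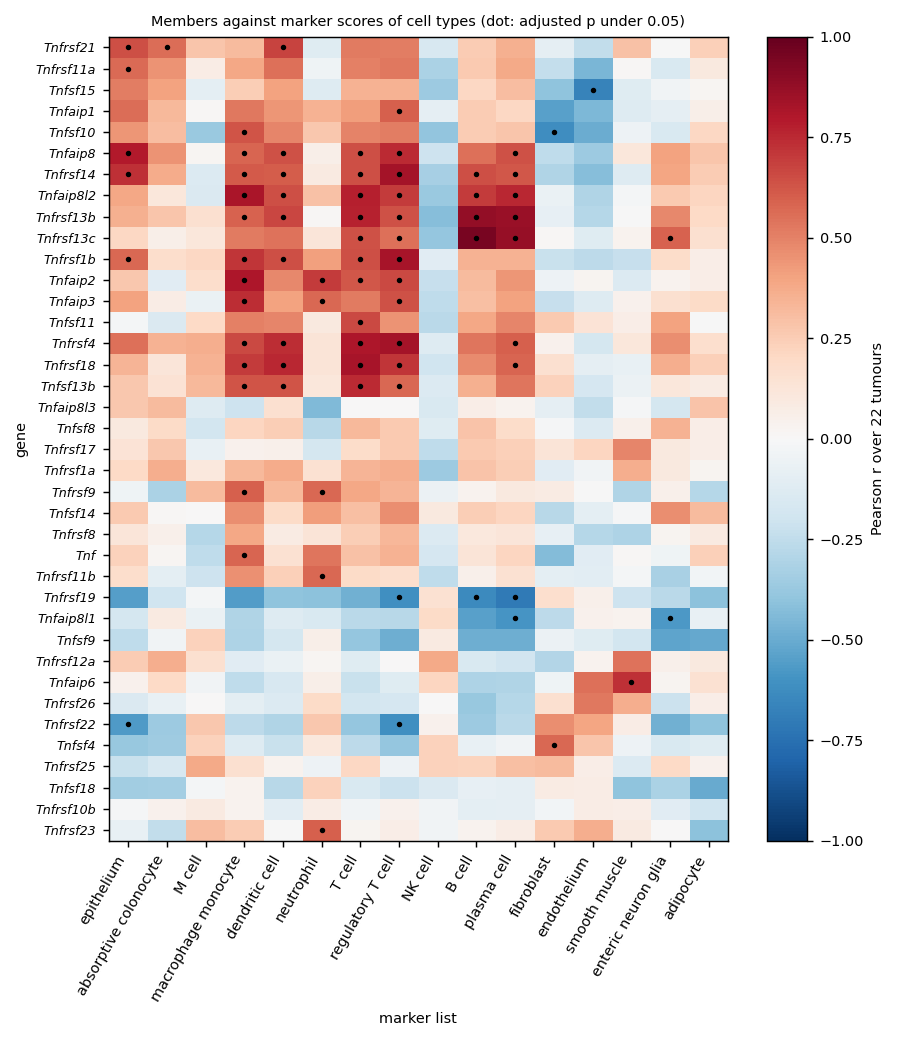
Pearson r over 22 tumours between each member (rows, similar patterns placed together) and each of 16 marker scores (columns), from -1 in blue to 1 in red, with a dot where the adjusted p is under 0.05. Dots gather in the macrophage, dendritic cell, T cell, regulatory T cell and plasma cell columns, 79 in all.

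Among receptors of B cells, Tnfrsf13c followed the B cell score with r = 0.953 (permutation p = 1e-05, the smallest that the resamples can give, adjusted p = 0.000553) and rho = 0.807 (permutation p = 2e-05). Formerly obese Mouse_152 stood far from the rest, at 10.74 for Tnfrsf13c, and had the highest B cell, plasma cell, regulatory T cell, macrophage and enteric neuron and glia scores. Without the 2 tumours farthest from the median score, r was 0.850. Tnfrsf13b, which encodes TACI, another receptor of BAFF, had r = 0.881 with that score (permutation p = 1e-05, adjusted p = 0.000553), rho = 0.828 (permutation p = 2e-05) and r = 0.695 without the farthest 2. The receptor gene of plasma cells, Tnfrsf17 (BCMA), had r = 0.24 with the plasma cell score (permutation p = 0.278, adjusted p = 0.551) and rho = 0.026 (permutation p = 0.909), at levels of 4.14 to 5.91. The ligand Tnfsf13b followed the T cell score with r = 0.749 (permutation p = 9e-05, adjusted p = 0.00288), rho = 0.711 (permutation p = 0.00033) and r = 0.706 without the farthest 2.

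Tnfrsf4 and Tnfrsf18, costimulatory receptors of T cells, followed T cell scores. Tnfrsf4, which encodes OX40, had r = 0.835 with the regulatory T cell score (permutation p = 1e-05, adjusted p = 0.000553), rho = 0.781 (permutation p = 8e-05) and r = 0.797 without the farthest 2. Tnfrsf18, which encodes GITR, had r = 0.821 with the T cell score (permutation p = 1e-05, adjusted p = 0.000553), rho = 0.846 (permutation p = 1e-05) and r = 0.783 without the farthest 2. Tnfrsf4 ran from 5.44 to 8.09 and Tnfrsf18 from 6.12 to 8.20, each lowest in control Mouse_26. Tnfrsf1b and Tnfrsf14, which encodes the lymphotoxin-related receptor HVEM, also followed the regulatory T cell score. Tnfrsf1b had r = 0.824 (permutation p = 2e-05, adjusted p = 0.000869), rho = 0.856 (permutation p = 1e-05) and r = 0.809 without the farthest 2. Tnfrsf14 had r = 0.834 (permutation p = 1e-05, adjusted p = 0.000553), rho = 0.878 (permutation p = 1e-05) and r = 0.778 without the farthest 2. Tnfrsf9 was not called with the T cell score, at r = 0.389 (permutation p = 0.0735, adjusted p = 0.275) and rho = 0.424 (permutation p = 0.0496). It was called with the macrophage score, at r = 0.599 (permutation p = 0.00327, adjusted p = 0.0321) and rho = 0.556 (permutation p = 0.00777, adjusted p = 0.0575, so not called by rho). That call was lost without any of control Mouse_20, Mouse_26 or Mouse_30, obese Mouse_109 or obese sulindac Mouse_X, and r was 0.443 without the farthest 2.

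Tnfaip8l2, Tnfaip2 and Tnfaip3 followed the macrophage score. Tnfaip8l2, which encodes the immune regulator TIPE2, had r = 0.813 (permutation p = 1e-05, adjusted p = 0.000553), rho = 0.811 (permutation p = 3e-05) and r = 0.785 without the farthest 2. Tnfaip2 had r = 0.805 (permutation p = 1e-05, adjusted p = 0.000553), rho = 0.875 (permutation p = 1e-05) and r = 0.714 without the farthest 2. Tnfaip3 had r = 0.739 (permutation p = 8e-05, adjusted p = 0.00286), rho = 0.752 (permutation p = 0.00011) and r = 0.590 without the farthest 2. Tnf itself had r = 0.581 (permutation p = 0.00469, adjusted p = 0.0419) and rho = 0.466 (permutation p = 0.0294, adjusted p = 0.142, so not called by rho). For Tnf r was 0.374 without the farthest 2, and the call was lost on leaving out any of control Mouse_17, Mouse_20 or Mouse_26, obese sulindac Mouse_114, Mouse_129 or Mouse_X, or formerly obese Mouse_140. With 1 tumour left out in turn, r ran from 0.476 to 0.687. The call of Tnf with the macrophage score is thus marginal, close to the threshold.

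Other members went with the epithelial score or against a score. Tnfaip8, a regulator of cell survival, followed the epithelial score with r = 0.792 (permutation p = 1e-05, adjusted p = 0.000553), rho = 0.809 (permutation p = 3e-05) and r = 0.811 without the farthest 2. Tnfrsf21, which encodes death receptor 6, did so with r = 0.645 (permutation p = 0.00113, adjusted p = 0.0172), rho = 0.614 (permutation p = 0.0029) and r = 0.566 without the farthest 2. Its r was larger with the dendritic cell score, 0.675 (permutation p = 0.0005, adjusted p = 0.0102), with rho = 0.576 (permutation p = 0.00616) and r = 0.575 without the farthest 2, a call lost without control Mouse_26. Tnfrsf19, a receptor known as TROY that marks stem cells of the intestinal crypt, ran against the plasma cell score with r = -0.708 (permutation p = 0.0003, adjusted p = 0.0073), rho = -0.632 (permutation p = 0.00216) and r = -0.573 without the farthest 2. It was lowest in formerly obese Mouse_152, at 5.92, where Tnfrsf13c was highest, and highest in control Mouse_26, at 10.14. Tnfsf15, which encodes the cytokine TL1A, ran against the endothelial score with r = -0.669 (permutation p = 0.00059, adjusted p = 0.0109), rho = -0.640 (permutation p = 0.00172) and r = -0.608 without the farthest 2. Tnfaip6, which encodes a hyaluronan-binding protein, went with the smooth muscle score at r = 0.733 (permutation p = 0.00055, adjusted p = 0.0104) and rho = 0.500 (permutation p = 0.0185, adjusted p = 0.107, so not called by rho), with r = 0.498 without the farthest 2 and the call lost without formerly obese Mouse_134. The 12 members with no call were Tnfrsf1a, Tnfrsf8, Tnfrsf10b, Tnfrsf12a, Tnfrsf17, Tnfrsf25, Tnfrsf26, Tnfsf8, Tnfsf9, Tnfsf14, Tnfsf18 and Tnfaip8l3.

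Correlation with Tnf itself was called for 3 of the 37 other members (8.11%), where 0.133% of all named genes reached the same positive r. These shares were not matched for SD either. Tnfaip3 had r = 0.820 (permutation p = 2e-05, adjusted p = 0.00074 over the 37) and rho = 0.739 (permutation p = 0.00018). Without obese sulindac Mouse_X and formerly obese Mouse_140, the 2 farthest from the median of Tnf, r was 0.769, and with group means removed it was 0.822. Tnfsf10 had r = 0.753 (permutation p = 4e-05, adjusted p = 0.00074), rho = 0.807 (permutation p = 1e-05) and r = 0.750 without those 2. Tnfaip2 had r = 0.693 (permutation p = 0.00024, adjusted p = 0.00296), rho = 0.620 (permutation p = 0.00244) and r = 0.577 without those 2, and its call was lost without Mouse_X. Tnf and Tnfsf10 were both highest in control Mouse_27, at 8.88 and 14.79. With group means removed, the 5 named genes most like Tnf over the 22 tumours were Mab21l3 (r = 0.884), Tnfaip3 (0.822), the monocyte receptor gene Cd14 (0.815), Acod1, the itaconate enzyme of activated macrophages (0.809), and the IL-36 cytokine gene Il1f9 (0.807). Cd14 is also a gene of the macrophage list.

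**Figure D5:**
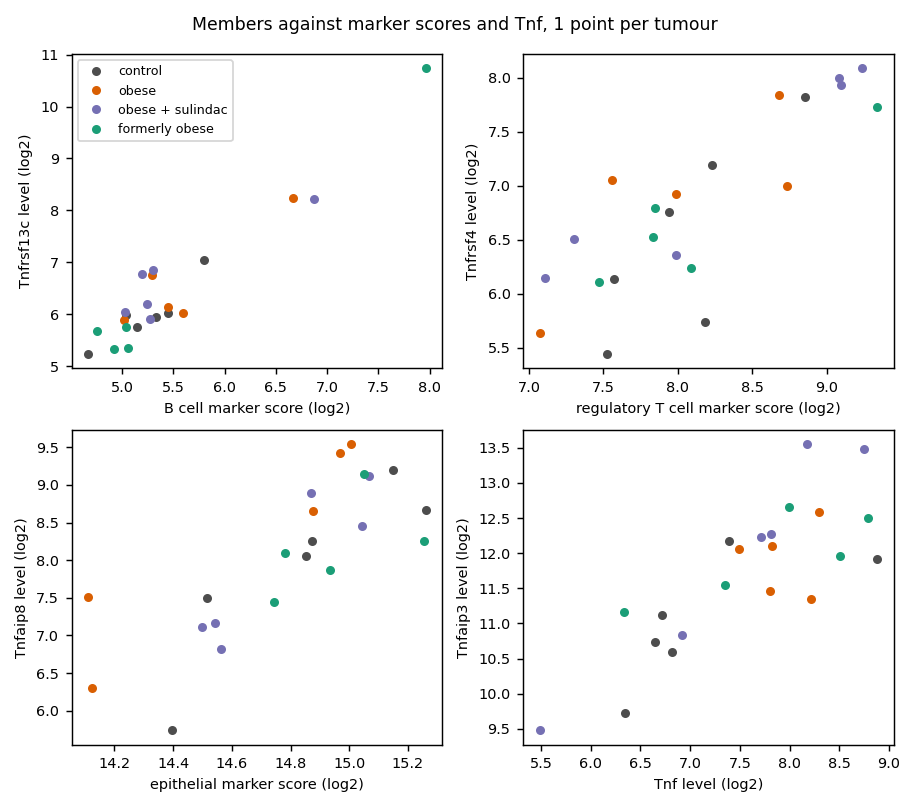
One point per tumour, coloured by regimen, all axes in log2. Tnfrsf13c rises with the B cell score to 10.74 in 1 formerly obese tumour, Tnfrsf4 with the regulatory T cell score, Tnfaip8 with the epithelial score and Tnfaip3 with Tnf (r = 0.953, 0.835, 0.792 and 0.820).

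Among the 703 pairs of members the median r was 0.11, with 19 pairs over 0.7 and 0 under -0.7, given as a description because pairs share tumours. The closest were Tnfrsf13b with Tnfrsf13c (r = 0.866), Tnfaip2 with Tnfaip3 (0.840) and Tnfrsf4 with Tnfrsf18 (0.838). The last 2 are neighbours in the genome. Other neighbouring members, not all of them listed here, had r = 0.488 for the decoy receptor genes Tnfrsf22 and Tnfrsf23, 0.216 for Tnfsf8 and Tnfsf15, and 0.057 for Tnfsf4 and Tnfsf18.

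The remaining members are given by their range over the 22 tumours. Tnfrsf10b, the TRAIL death receptor, ran from 9.10 to 10.97, and Tnfrsf11b, the decoy of RANK ligand, from 12.12 to 15.36. Tnfrsf22 and Tnfrsf23, decoys for TRAIL, ran from 7.16 to 10.00 and from 9.01 to 11.84, and Tnfrsf26 from 6.88 to 8.67. Tnfrsf11a ran from 7.15 to 10.33, and Tnfrsf12a, which encodes the TWEAK receptor, from 11.71 to 13.38. Tnfrsf8, which encodes CD30, ran from 5.38 to 7.82, and Tnfrsf25, which encodes the TL1A receptor, from 5.05 to 6.19. Of the ligands, Tnfsf8, which encodes CD30 ligand, ran from 4.87 to 6.43, Tnfsf14, which encodes LIGHT, from 4.36 to 6.31, and Tnfsf18, which encodes GITR ligand, from 5.21 to 8.41. Tnfaip1 ran from 11.54 to 13.25.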

How the data were processed

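Total RNA of 22 tumours was hybridised to Clariom S arrays, per the labels' protocols. The deposited values are levels read as log2, 1 per probe set and array, made with Transcriptome Analysis Console 4.0 per the submitters' processing notes. How probes were summarized and normalized, and the log base, is not given in the sources used. Probe sets were named through the array's annotation, and 38 of 38 members matched RefSeq by Entrez identifier. All 22203 probe sets entered a 4-group model in R 4.3.3 with limma 3.58.1, without a filter, and p-values were adjusted by Benjamini-Hochberg. Correlations, exact permutation tests and motif searches were run in Python 3.11.15 with scipy 1.17.1. The programs were tested on simulated data.

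The members and the gene lists were chosen with earlier results of these data known. Values per tumour or ranges are given for Tnf, Tnfrsf1a, Tnfrsf1b and Tnfaip3 and for the 3 members with the largest SD. They are also given for the 3 members with the smallest limma p in each main comparison and the 1 in each secondary comparison. From each pathway list at most 2 genes with the smallest p in a comparison are named, and the 5 genes most like Tnf. Other members are named by their correlation or range. Alternatives were quantile normalization, centring, a filter on dim probe sets, trended and robust eBayes, array weights, the 2 groups alone and leaving out each tumour. The labels name no litter or batch;  p-values measure the spread between these tumours. The number of arrays limits the precision.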

Additional observations from a re-analysis of the deposited data

Results flagged for a closer look

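In 8 sets of levels (a member in a group), 5.26% of those examined, the highest or lowest tumour stood apart from the others of its group by Dixon's gap test. Chance gives about 1 in 20. Formerly obese Mouse_152 accounted for 3: Tnfrsf13c at 10.74 (nearest tumour 5.76), Tnfrsf13b at 8.06 (nearest 6.11) and Tnfrsf19 at 5.92 (nearest 8.54). This tumour had the highest of all 22 scores for B cells (7.96), plasma cells (10.28), regulatory T cells (9.34), macrophages (11.20) and enteric neurons and glia (6.26). Formerly obese Mouse_134 accounted for 2, Tnfrsf21 at 10.44 (nearest 9.42) and Tnfsf18 at 6.62 (nearest 7.42). The others were Tnfrsf10b at 10.73 in obese sulindac Mouse_124 (nearest 9.62), Tnfsf14 at 4.76 in obese Mouse_107 (nearest 5.28) and Tnfsf4 at 9.17 in obese Mouse_96 (nearest 6.87). The causes were not tested.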

How the results depend on the processing

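No member was called between regimens in any setting tried, the lowest adjusted p being 0.380 in limma. Of 692 alternatives of 24 single differences, 672 kept the direction and 20 reversed it. Some reversed values were farther from 0 than the main ones. They include 0.24 for Tnf (formerly obese minus obese) and -0.25 for Tnfaip3 (obese sulindac minus obese), each with 1 tumour left out. With array weights Tnfaip3 was at -0.0977 for formerly obese minus obese and Tnfrsf1a at 0.0609 for obese sulindac minus obese, and with arrays centred on their median Tnfrsf1a was at 0.014 for formerly obese minus obese. Leaving out each tumour in turn, formerly obese minus obese ran from -0.38 to 0.24 for Tnf, -0.12 to 0.26 for Tnfaip3, -0.21 to 0.16 for Tnfrsf1a and -0.47 to 0.0875 for Tnfrsf1b. Obese sulindac minus obese ran from -0.25 to 0.56 for Tnfaip3, -0.17 to 0.15 for Tnfrsf1a and -0.0517 to 0.51 for Tnfrsf1b. The count of called pairs with marker scores ran from 48 without control Mouse_26 to 87 without formerly obese Mouse_134, against 79, and was 80 by Spearman's rho, 102 with group means removed and 84 after quantile normalization. The causes were not tested. Members called with Tnf numbered 2 to 4. No paired analysis was possible because the groups share no mouse numbers. Dim members such as Tnfsf11 and Tnfaip8l3 have no stated background to be set against.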
